A study of Homo sapiens with 12 samples.

Results

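The response of gene expression to 2 exposures was examined in derivatives of HaCaT, a long-established human keratinocyte line, in which a short hairpin RNA knocks down UTX (shUTX) or NRF2 (shNRF2). Of the 12 RNA-seq libraries of the series, 6 belong to these derivatives: for each hairpin, 1 untreated library, 1 library after 24 h with 100 µM hydrogen peroxide (H2O2) and 1 library after 24 h with 25 µg/mL cerium oxide nanoparticles (CeO2). The 4 exposed libraries were set against the 2 untreated ones with the hairpin as a block, so that each exposed library was read against the untreated library of its own derivative. The other 6 libraries carry a control hairpin (shControl) or one against MLL1 (shMLL1). They serve here only for the comparison at the end and for a few mitochondrial transcripts with CeO2. All groups used here carry a hairpin, and the labels do not say whether a derivative is 1 clone or whether its libraries come from separate cultures. Every p-value therefore rests on the spread among these libraries, and the hairpins stand in for replicates without being any. Where the exposures are pooled, or the pooled response is compared between hairpins, the H2O2 and CeO2 libraries stand in for replicates too.

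Genes were read by name only where the names in the count tables match their reads: on 5 stretches of the genome (GRCh38), namely chromosome 5 from 218241 to 44820428, chromosome 9 from 19375715 to 37801437, chromosome 11 from 236546 to 842545, chromosome 18 from 3247481 to 12344320 and chromosome 19 from 867630 to 6393981, and on the mitochondrial genome. The stretches were chosen by the measured levels of genes that every cell uses, many of which are listed at or near 0 elsewhere, so a level inside them is no finding. The first coding entry inside each of the 10 ends had a mean of 125 to 3640 CPM (counts scaled by the total count of the library), and the first one outside had 0 to 2510 CPM, with 7 of 10 at 1 CPM or more. The stretches hold 1587 of the 61498 entries, 535 of them coding. Of the 1587, 480 had at least 1 CPM in at least 2 of the 6 libraries and were tested, 374 of them coding, and the remaining 1107 fell below that filter. These 480 are called matched entries below, and every adjusted p was computed over all 10675 entries that passed the filter.

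UTX, encoded by KDM6A, is a histone demethylase that removes the repressive mark set by Polycomb proteins. NRF2, encoded by NFE2L2, is the transcription factor that oxidants release from its inhibitor KEAP1; it then binds antioxidant response elements in front of genes for glutathione synthesis, quinone reduction and iron handling. Hydrogen peroxide oxidises cysteines, lipids and DNA, and keratinocytes meet it in inflamed or irradiated skin. The cerium in cerium oxide nanoparticles cycles between oxidation states, so the particles can take up or give off reactive oxygen. The best known NRF2 target genes lie outside the matched stretches and are not read here.

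Total counts of the 6 libraries ran from 5388335 to 7670446, and a count of 0 allows 0.391 to 0.557 CPM. The share of counts from the mitochondrial genome was 8.31%, 8.72% and 8.20% in the untreated, H2O2 and CeO2 libraries of shUTX and 8.91%, 8.83% and 7.41% in those of shNRF2. The KDM6A entry held 1, 0 and 1 counts in shUTX and 4, 4 and 5 in shNRF2, and the NFE2L2 entry 0, 0 and 0 in shNRF2 and 1, 1 and 4 in shUTX. Both lie outside the matched stretches, where names need not match reads, so these counts are no check of the hairpin labels. Of 12 keratinocyte markers only AQP3 and TINCR lie in the stretches, with a summed level of 244 to 480 CPM over the 6 libraries. The melanocyte gene SLC45A2 had 1 count in 1 library, and the fibroblast gene C7 and the endothelial gene TEK had none. Of 7 immune markers, IL7R and FYB1 lie in the stretches and summed to 399 to 1330 CPM, higher in all 3 shNRF2 libraries than in any shUTX library.

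A small set of genes was called between H2O2 and untreated cells over both derivatives, most of them with small folds (median log2 change 0.31 for the rises and -0.24 for the falls). PNPLA2, the gene of adipose triglyceride lipase, rose 1.32-fold, CDKN2B, which encodes the cell cycle inhibitor p15, rose 1.32-fold, and the secreted metalloprotease gene ADAMTS12 rose with them. SLC1A3, which encodes a glutamate and aspartate transporter, fell 1.23-fold, together with HMGCS1 of cholesterol synthesis and VCP, the ATPase that extracts ubiquitinated proteins. In bulk RNA, a change in the number of cells of a kind and a change in RNA per cell cannot be told apart, here and in all results below. The edgeR quasi-likelihood test called 17 matched entries higher and 7 lower at an adjusted p of 0.05, against 1.49% (159) higher and 1.14% (122) lower of the 10675 entries tested. The 24 calls are 5.0% of the 480 matched entries; the difference of that share from the background was not tested. All 24 are coding. Each lay on the side of its call in both H2O2 libraries, which is nearly built in because the call was made from those same libraries. DESeq2 called 38 entries in all and 2 matched ones, PNPLA2 and SLC1A3.

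PNPLA2 (chromosome 11, 818902 to 825573) stood at 184 CPM in untreated, 253 CPM in H2O2 and 197 CPM in CeO2 cells of shUTX and at 208, 269 and 220 CPM in the same order in shNRF2. The H2O2 library was the highest of its derivative in both cases, and both H2O2 values lay above all 4 others. The ratio of H2O2 to untreated was 1.38 (exact 95% interval 1.27 to 1.49) in shUTX and 1.29 (1.20 to 1.39) in shNRF2; such intervals cover counting error only. The fitted log2 change was 0.40 ± 0.06 (SE, edgeR adjusted p = 0.000108), and PNPLA2 was the only matched gene called with every library left out in turn (largest adjusted p = 0.0013). Its enzyme carries out the first step of triglyceride breakdown in lipid droplets. CRACR2B, the next gene on the same strand (chromosome 11, 826144 to 831991), encodes a regulator of store-operated calcium entry and stood at 17.3, 28.6 and 17.9 CPM in shUTX and 21.8, 32.2 and 24.8 CPM in shNRF2. Its log2 change was 0.63 ± 0.14 (adjusted p = 0.00895), a call lost without the H2O2 library of shUTX or the untreated library of shNRF2. Both genes overlap an annotated gene on the other strand.

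CDKN2B (chromosome 9, 22002903 to 22009363) stood at 122, 171 and 122 CPM in untreated, H2O2 and CeO2 shUTX cells and at 75.6, 94.5 and 73.9 CPM in shNRF2 cells. The CeO2 library lay close to the untreated one in both derivatives and the H2O2 library exceeded both. The log2 change with H2O2 was 0.40 ± 0.07 (adjusted p = 0.00192), and the call was lost without the untreated (largest adjusted p 0.0592) or H2O2 library of shUTX. CDKN2A, the neighbouring gene of p16 and p14ARF, had a log2 difference of 0.19 ± 0.06 that did not pass (adjusted p = 0.0807). Both genes overlap the antisense RNA gene CDKN2B-AS1, so the strand from which their reads came is uncertain.

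Among membrane and secreted proteases, ADAMTS12 (chromosome 5, 33523535 to 33892192) stood at 194, 258 and 218 CPM in untreated, H2O2 and CeO2 shUTX cells and at 135, 168 and 115 CPM in shNRF2 cells. Its log2 change with H2O2 was 0.35 ± 0.07 (adjusted p = 0.00633), lost without the untreated shUTX library (0.20). TMPRSS9, a membrane serine protease gene (chromosome 19, 2360238 to 2426239), had only 5, 22 and 18 counts in shUTX and 14, 38 and 36 in shNRF2. All 4 exposed libraries exceeded their untreated library, 4.08-fold (exact interval 1.51 to 13.8) with H2O2 in shUTX and 3.18-fold (1.68 to 6.34) with H2O2 in shNRF2. The fitted rise with H2O2 was 3.39-fold (log2 1.76 ± 0.39, adjusted p = 0.0111), DESeq2 gave it no adjusted p, and the call was lost without either the untreated or the H2O2 library of shNRF2. TMPRSS9 overlaps TIMM13 on the other strand. THOP1, a cytosolic peptidase gene, rose by 0.18 ± 0.05 (adjusted p = 0.0496) and lost its call without any 1 of the 4 libraries of this comparison.

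The other rises were of genes with various roles. EPS8L2, an actin regulator (chromosome 11, 694438 to 727727), went from 337 to 456 CPM in shUTX and from 412 to 465 CPM in shNRF2 with H2O2 (log2 0.29 ± 0.06, adjusted p = 0.0053), a call lost without the H2O2 library of shUTX (0.238). With CeO2 it stood at 359 and 461 CPM, so that in shNRF2 both exposures gave nearly the same level. KDM4B, another histone demethylase (chromosome 19, 4969113 to 5153595), went from 72.8 to 95.1 CPM in shUTX and from 107 to 129 CPM in shNRF2 (log2 0.31 ± 0.08, adjusted p = 0.0207), and its CeO2 levels of 85.1 and 121 CPM lay between; the call was lost without any 1 of those 4 untreated and H2O2 libraries. SLC12A7, a potassium chloride cotransporter gene, MFSD12, which encodes a lysosomal membrane protein, TICAM1, the adaptor TRIF of Toll-like receptor 3, and ABCA7, a lipid transporter gene, rose by 0.25 ± 0.06, 0.24 ± 0.06, 0.23 ± 0.06 and 0.29 ± 0.08 on the log2 scale. WDR18 (0.21 ± 0.06), the ciliary gene CPLANE1 (0.38 ± 0.10), CBARP, a regulator of calcium channels (0.93 ± 0.20), FUT3, a fucosyltransferase gene with close paralogs (0.69 ± 0.19), and MT-ND1 of respiratory complex I (0.21 ± 0.06) completed the 17.

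CBARP and FUT3 were low and uneven between the derivatives. CBARP went from 10.95 to 16.5 CPM in shUTX and from 8.79 to 20.9 CPM in shNRF2, and FUT3 from 13.2 to 15.5 CPM and from 9.94 to 21.6 CPM. Both lost their call without the untreated or without the H2O2 library of shNRF2 (adjusted p up to 0.421 and 0.714). Over the 17, 9 also lay above their untreated library in both CeO2 libraries, and 9 overlap a gene on the other strand. The H2O2 and CeO2 ratios share their untreated library, so the first count is partly built in. Over all 480 matched entries, 151 had the same sign in all 4 exposed libraries. That count is no like baseline, since the 17 already lay on 1 side in both H2O2 libraries and the 480 need not. The share of matched entries with such an overlap was not counted.

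The falls with H2O2 were smaller, 1.13-fold to 1.30-fold. SLC1A3 (chromosome 5, 36606355 to 36688334) stood at 715, 607 and 706 CPM in untreated, H2O2 and CeO2 shUTX cells and at 1140, 904 and 1088 CPM in shNRF2 cells. The H2O2 library was the lowest of its derivative in both, at 0.85 (exact interval 0.81 to 0.89) and 0.79 (0.77 to 0.82) of the untreated level. The log2 change was -0.30 ± 0.05 (edgeR adjusted p = 0.000421, DESeq2 0.00707), and without the untreated shNRF2 library its adjusted p was 0.0516. TMEM267, a transmembrane protein gene, went from 123 to 91.8 CPM in shUTX and from 93.5 to 75.6 CPM in shNRF2 (log2 -0.37 ± 0.08, adjusted p = 0.00563), with CeO2 levels of 113 and 86.6 CPM between. HMGCS1, the cytosolic HMG-CoA synthase, went from 486 to 470.0 CPM in shUTX and from 506 to 377 CPM in shNRF2 (log2 -0.25 ± 0.06, adjusted p = 0.0248). Nearly all of the HMGCS1 difference thus lay in shNRF2, and its call was lost without the untreated or the H2O2 library of that derivative (adjusted p up to 0.60).

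VCP (chromosome 9, 35056064 to 35073249) went from 2483 to 2313 CPM in shUTX and from 2167 to 1860 CPM in shNRF2 with H2O2, and stood at 2503 and 2234 CPM with CeO2. The fall of 1.13-fold (log2 -0.17 ± 0.05, adjusted p = 0.0372) was lost without either untreated library or the H2O2 library of shNRF2, by DESeq2 (0.408), with a filter at 5 CPM and with the trend of counts with transcript length removed. CIRBP, a cold-inducible RNA-binding protein gene (327 to 271 CPM in shUTX, 428 to 380 CPM in shNRF2), fell by 0.23 ± 0.05 on the log2 scale. PIGO, of the synthesis of GPI anchors, and PPP4R1, a regulatory subunit of protein phosphatase 4, fell by 0.24 ± 0.06 and 0.22 ± 0.06. Of the 7 falls, 4 lay below the untreated library in both CeO2 libraries too, and 5 overlap a gene on the other strand. Here as well the untreated library is shared, and the share of overlaps over all matched entries was not counted.

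**Figure D1:**
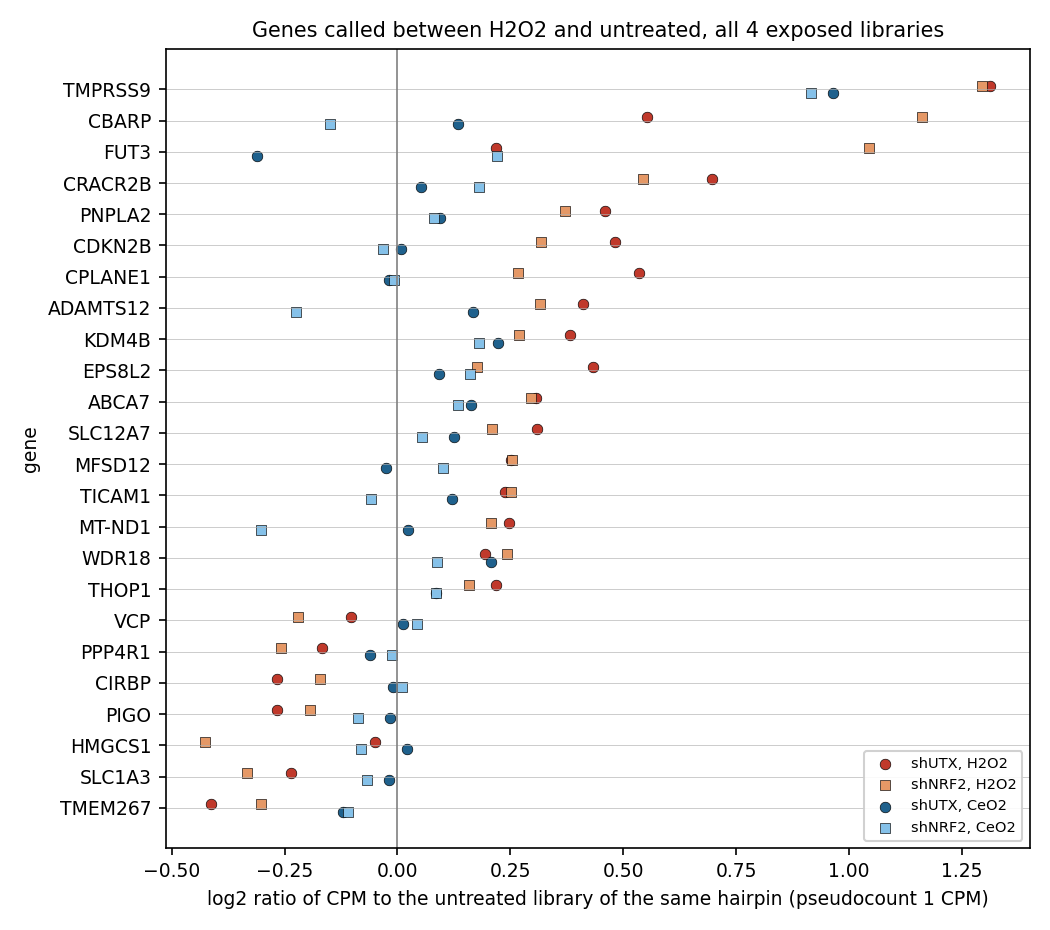
Log2 ratio of each exposed library to the untreated library of the same hairpin (x axis, CPM with a pseudocount of 1 CPM) for the 24 matched genes called between H2O2 and untreated (y axis, ordered by fitted change). Circles are shUTX and squares shNRF2, red tones H2O2 and blue tones CeO2. Both H2O2 points of each gene lie on the side of its call, which the call itself nearly requires. Both CeO2 points lie on that side for 9 of the 17 rises and 4 of the 7 falls. They share their untreated library with the H2O2 points.

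The calls rested on few libraries. Without the untreated shUTX library 9 of the 24 were still called, without the untreated shNRF2 library 6, and without either H2O2 library 12 each. Leaving out a CeO2 library, which does not enter this difference, kept all 24, among 39 or 40 matched calls.

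Since NRF2 binds antioxidant response elements and oxidants also act on AP-1, bases before a RefSeq start of the called genes were searched for both motifs. The RefSeq start nearest to the gene's start in GENCODE 29 was taken, at any distance from it. RefSeq (GRCh38.p14) gave the 250 bases before the start for 22 of the 23 called nuclear genes. The core TGACNNNGC of the antioxidant response element was found on either strand in 3 of the 22 (EPS8L2, SLC1A3 and VCP), against 10.91% of 35116 promoters of the table. The AP-1 motif TGANTCA was found in 1 (ADAMTS12), against 6.57%. The 2 motifs share 0 bases in the sequences printed here, and a match describes the letters only. The 3 stretches with the core are shown with 10 bases on each side, 5′ to 3′ on the strand of the gene, the core in capitals. These bases lie wholly or mostly in exons annotated by GENCODE 29, upstream of the RefSeq start. All 3 stretches lie inside the span given above for their own gene, so they are not bases before the whole gene. Their positions are chr11:706108-706136 (plus strand) for EPS8L2, chr5:36606400-36606428 (plus strand) for SLC1A3 and chr9:35072796-35072824 (minus strand) for VCP, and the core begins 113, 196 and 189 bases before the start.
EPS8L2: cgctctcgggTGACTCCGCaacctgtcgc
SLC1A3: gacagtgaacTGACAAAGCgtgaaagtgg
VCP: tgcggccaatTGACGTGGCgttactaggc
EPS8L2 rose with H2O2 and the other two fell. PNPLA2, called with every library left out, holds neither motif in its 250 bases; the 238 of them that lie before any annotated exon (chr11:818664-818901, plus strand) are shown because it had the smallest p with H2O2 of the matched genes.
PNPLA2: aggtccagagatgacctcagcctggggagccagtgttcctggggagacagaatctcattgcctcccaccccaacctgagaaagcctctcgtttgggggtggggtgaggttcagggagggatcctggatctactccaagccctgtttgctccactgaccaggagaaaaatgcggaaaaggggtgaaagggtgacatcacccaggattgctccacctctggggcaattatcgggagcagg

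Cerium oxide nanoparticles gave no matched gene past the threshold. The genes with the smallest p were those of the mitochondrial genome, MT-ND3, MT-CO1, MT-ATP8 and MT-ND4, together with SLC4A1APP1, a processed pseudogene. MT-ND3, a complex I subunit, stood at 1116, 1123 and 1057 CPM in untreated, H2O2 and CeO2 shUTX cells and at 1095, 1085 and 829 CPM in shNRF2 cells. The low value was thus the CeO2 library of shNRF2, at 0.76 of its untreated level (exact interval 0.73 to 0.78), against 0.95 (0.91 to 0.98) in shUTX. The fitted log2 difference was -0.25 ± 0.06 (edgeR adjusted p = 0.134). MT-CO1 of cytochrome oxidase, MT-ATP8 of ATP synthase and MT-ND4 of complex I had log2 differences of -0.16 ± 0.04, -0.24 ± 0.07 and -0.17 ± 0.05 (edgeR adjusted p 0.31 to 0.362). With CeO2, MT-ND3 also lay below its untreated library in shControl and shMLL1 (log2 ratio -0.64 and -0.46), so its fall was not particular to shNRF2. MT-CO1, MT-ATP8 and MT-ND4 lay below it in shMLL1 (-0.20, -0.42 and -0.20) and above it in shControl (0.053, 0.067 and 0.18). SLC4A1APP1 had 28, 122 and 36 counts in shUTX and 129, 9 and 8 in shNRF2, so its H2O2 and CeO2 values went apart between the derivatives; a pseudogene may take reads of its parent gene.

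In this comparison edgeR called 7 of 10675 entries (0.0656%) and 0 of the 480 matched ones, with 684 and 56 under an unadjusted p of 0.05. DESeq2 called 2 entries and no matched one. The matched count moved to 13, all lower, with no filter beyond a count above 0, and to between 1 and 17 with 1 library left out. All of these were lower with CeO2; the 17 came without the CeO2 library of shUTX, and the count was 1 without that of shNRF2.

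Between the exposures, several mitochondrially encoded transcripts were higher with H2O2 than with CeO2, as were PNPLA2 and CDKN2B, and SLC1A3 was lower. Of the 13 protein genes of the mitochondrial genome all 13 had a fitted difference above 0, 7 of them past the threshold (MT-ND1, MT-ND2, MT-ND3, MT-ND4, MT-ND5, MT-CYB and MT-CO3), with a median log2 difference of 0.19 over the 13 against -0.0023 over all entries. The 13 share the mitochondrial fraction of each library and are not independent results. That fraction was 8.83% with H2O2 and 7.41% with CeO2 in shNRF2, and 8.72% and 8.20% in shUTX. MT-RNR1, the 12S ribosomal RNA, was called as well, and MT-RNR2, the 16S ribosomal RNA, was not (0.10 ± 0.04, adjusted p = 0.251). The edgeR test called 20 matched entries higher and 9 lower with H2O2, against 1.85% (197) higher and 1.1% lower of all 10675; the calls are 6.04% of the matched entries. DESeq2 called 56 entries and 4 matched ones, PNPLA2, MT-ND4, MT-ND1 and MT-RNR1. All 29 matched calls lay on the same side in both derivatives, which a call made from these same libraries nearly requires.

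MT-ND1 (mitochondrial genome, 3307 to 4262) stood at 2582, 3065 and 2623 CPM in untreated, H2O2 and CeO2 shUTX cells and at 2269, 2620 and 1840 CPM in shNRF2 cells. MT-ND2 (4470 to 5511) stood at 5675, 6477 and 5708 CPM and at 4866, 5817 and 3703 CPM. In shUTX the H2O2 library was high and the CeO2 library close to the untreated one; in shNRF2 the H2O2 library was high and the CeO2 library low. The differences between H2O2 and CeO2 were 0.36 ± 0.06 for MT-ND1 and 0.41 ± 0.06 for MT-ND2 on the log2 scale (adjusted p = 0.000138 and 0.00018). Both calls held with every library left out in turn (adjusted p up to 0.0372 and 0.0421).

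MT-ND4 (10760 to 12137) stood at 7790, 8502 and 7606 CPM in shUTX and 8908, 9336 and 7319 CPM in shNRF2 (0.25 ± 0.05, adjusted p = 0.00171). MT-CYB of complex III (14747 to 15887) stood at 4224, 4487 and 4240 CPM and at 5565, 5609 and 4573 CPM (0.19 ± 0.05, adjusted p = 0.0394), and MT-CO3 of complex IV (9207 to 9990) at 8017, 8398 and 7791 CPM and at 9302, 9174 and 7850 CPM (0.17 ± 0.05, adjusted p = 0.0385). Within shNRF2 the CeO2 library was the lowest of the 3 for each of these genes, while within shUTX the H2O2 library was the highest. Relative to its untreated library, the CeO2 library of shNRF2 had all 13 protein genes lower, each with an exact interval below 1, at ratios of 0.74 to 0.86 (median 0.82). The CeO2 library of shUTX had ratios of 0.95 to 1.05 (median 0.99), 7 of 13 below 1. The H2O2 library of shUTX had 1 of 13 ratios below 1 and 10 intervals above 1, at ratios of 1.00 to 1.19 (median 1.06), and that of shNRF2 had 5 intervals above and 5 below 1, at ratios of 0.78 to 1.20 (median 0.99). Without the CeO2 library of shNRF2, MT-ND1 and MT-ND2 kept their call among the 8 mitochondrial ones, and 10 of all 29 were kept.

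**Figure D2:**
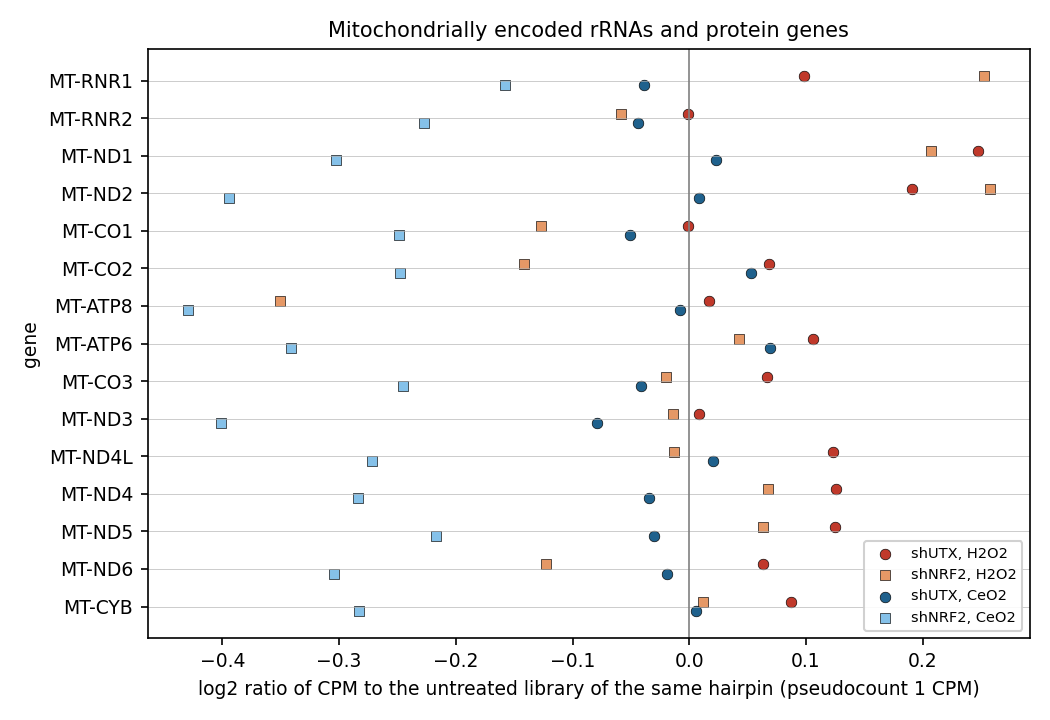
Log2 ratio of each exposed library to the untreated library of the same hairpin (x axis, CPM with a pseudocount of 1 CPM) for the 2 rRNAs and 13 protein genes of the mitochondrial genome (y axis, in genome order). The CeO2 library of shNRF2 (light blue squares) lies below 0 for all 15, while the CeO2 library of shUTX (dark blue circles) stays near 0.

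Among nuclear genes that separated the exposures, GPX4 (chromosome 19, 1103926 to 1106791), whose selenoprotein detoxifies oxidised membrane lipids, stood at 778, 747 and 629 CPM in untreated, H2O2 and CeO2 shUTX cells and at 483, 620 and 498 CPM in shNRF2 cells. The H2O2 library exceeded the CeO2 library in both (log2 0.28 ± 0.07, edgeR adjusted p = 0.0119), but in shUTX CeO2 was low and in shNRF2 H2O2 was high against the untreated level. Neither exposure passed alone (adjusted p = 0.323 and 0.737), DESeq2 did not call it (0.967), and the call was lost without the CeO2 library of shUTX or the H2O2 library of shNRF2. PTGER4, a prostaglandin E2 receptor gene, stood at 36.2, 47.0 and 31.0 CPM and at 59.5, 72.6 and 58.8 CPM (0.43 ± 0.10, adjusted p = 0.0129), with the H2O2 library highest in both derivatives. PNPLA2 and CDKN2B were higher with H2O2 than with CeO2 by 0.33 ± 0.06 and 0.42 ± 0.07 on the log2 scale (adjusted p = 0.000764 and 0.000545), and SLC1A3 was lower by 0.24 ± 0.05 (adjusted p = 0.00273). These and the 2 complex I genes above are the 5 matched genes whose calls held with every library left out.

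The other calls between exposures were spread over several roles. MEX3D, an RNA-binding protein gene, was higher with H2O2 (0.31 ± 0.07), as were ADAMTS12 (0.38 ± 0.07), CBARP (0.93 ± 0.20), FUT3 (0.74 ± 0.19), CRACR2B (0.51 ± 0.13), CPLANE1 (0.41 ± 0.10) and MFSD12 (0.21 ± 0.06). CLIC4P1, a processed pseudogene, was called higher with H2O2 (0.95 ± 0.23), but its count of 86 in the CeO2 library of shNRF2 stood apart from 182 to 290 in the other 5, and without that library its adjusted p was 0.858. POLR2L, a subunit shared by the nuclear RNA polymerases, was lower with H2O2 (-0.26 ± 0.06), as were TNFAIP8L1 (-0.32 ± 0.08), GATD1 (-0.22 ± 0.05), CIRBP (-0.22 ± 0.05), NDUFS6 of complex I (-0.21 ± 0.06), the small GTPase gene HRAS (-0.21 ± 0.06), VCP (-0.19 ± 0.05) and LMNB2, of lamin B2 (-0.18 ± 0.04). NDUFS6 and HRAS lost the call without any 1 of the 4 exposed libraries.

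**Figure D3:**
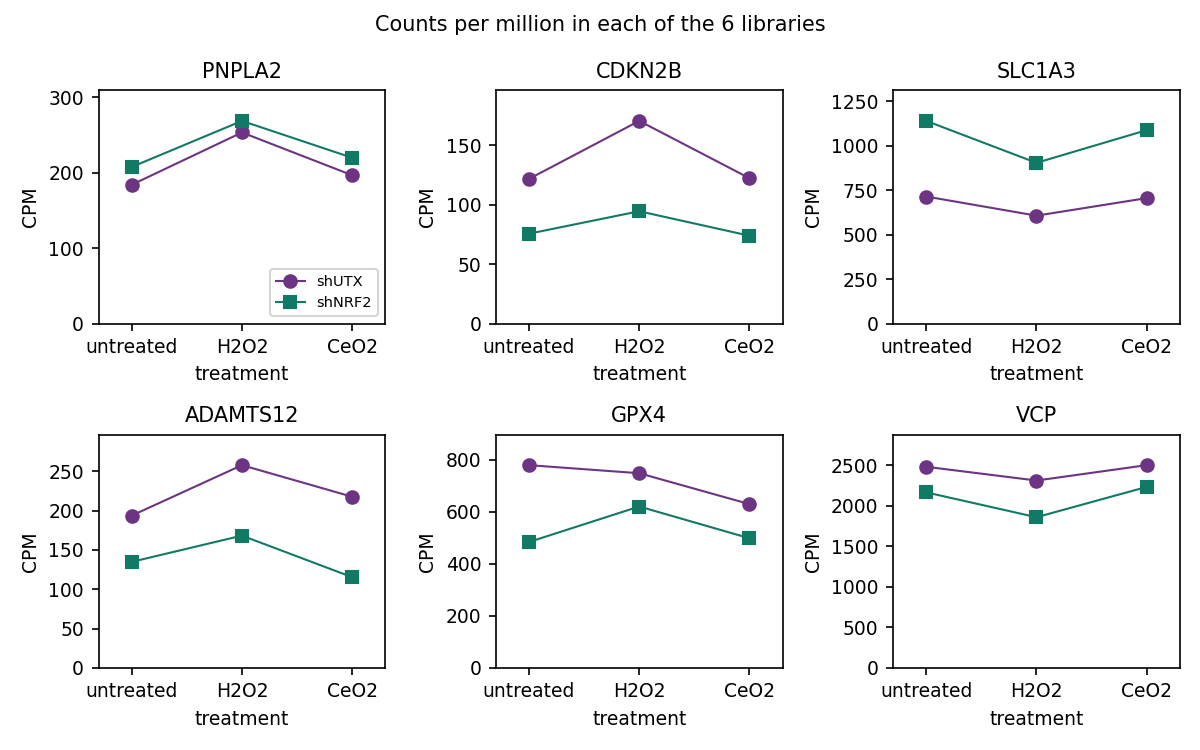
Level in CPM (y axis, from 0) in each of the 6 libraries by treatment (x axis), with shUTX as circles and shNRF2 as squares and 1 library per point, for PNPLA2, CDKN2B, SLC1A3, ADAMTS12, GPX4 and VCP. PNPLA2 and CDKN2B peak and SLC1A3 dips at H2O2 in both derivatives, whereas GPX4 takes a different course in each.

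With both exposures pooled against untreated cells, no matched gene passed the threshold. This fit has no term for the kind of exposure, so a difference between H2O2 and CeO2 counted as spread. PNPLA2, called with H2O2 alone (edgeR adjusted p = 0.000108), did not pass here. The edgeR test called 1 of 10675 entries (0.00937%), outside the matched stretches, and 0 of 480 matched ones. An unadjusted p under 0.05 was reached by 635 entries, 34 of them matched. By DESeq2 0 entries and by limma-voom 1 entry passed, none of them matched. The genes named for this comparison had the same sign in all 4 exposed libraries, as did 151 of the 480, averaged 5 CPM or more, and were those of smallest p; each had an adjusted p of 0.816, so what follows are values and no calls. TMPRSS9, under 5 CPM on average, had a log2 difference of 1.54 ± 0.36 with the same adjusted p.

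On the higher side, AMACR, an enzyme of branched-chain fatty acid breakdown, stood at 13.6, 18.8 and 19.8 CPM in untreated, H2O2 and CeO2 shUTX cells and at 9.36, 12.6 and 12.1 CPM in shNRF2 cells (0.45 ± 0.15 on the log2 scale). SDHA, the catalytic subunit of succinate dehydrogenase, stood at 650, 710 and 696 CPM and at 655, 742 and 751 CPM (0.14 ± 0.05). PTPRS, a receptor tyrosine phosphatase gene, stood at 107, 127 and 109 CPM and at 588, 671 and 690 CPM (0.17 ± 0.07). In each of these, both untreated libraries were the lowest of their derivative. KDM4B (0.25 ± 0.08), EPS8L2 (0.21 ± 0.08), PNPLA2 (0.25 ± 0.09), ABCA7 (0.21 ± 0.08), WDR18 (0.17 ± 0.06), SLC12A7 (0.16 ± 0.07), CRACR2B (0.38 ± 0.17), THOP1 (0.13 ± 0.06) and CDKN2A (0.15 ± 0.06) were the other 9.

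On the lower side, TWSG1, an extracellular regulator of BMP signalling, stood at 103, 79.4 and 89.1 CPM and at 90.2, 80.9 and 77.3 CPM (-0.25 ± 0.08). SKP2, which directs p27 to degradation, stood at 468, 427 and 441 CPM and at 563, 504 and 492 CPM (-0.15 ± 0.06). PRKAA1, a catalytic subunit of AMP-activated kinase, stood at 541, 486 and 510 CPM and at 436, 406 and 392.4 CPM (-0.13 ± 0.06). Here the untreated library was the highest of its derivative throughout, again because the genes were chosen for the same sign in all exposed libraries. The mitochondrial NAD kinase gene NADK2 (-0.20 ± 0.07), FASTKD3, a mitochondrial RNA-binding protein gene (-0.17 ± 0.07), MTMR12 (-0.16 ± 0.06), MYL12A of myosin light chain (-0.17 ± 0.07), the host gene of microRNA 31 MIR31HG (-0.32 ± 0.13), LMBRD2 (-0.17 ± 0.07), SUB1 (-0.13 ± 0.06), TMEM267 (-0.24 ± 0.09) and SLC1A3 (-0.17 ± 0.07) were the other 9.

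The antioxidant, iron and pentose phosphate list had 8 of its 10 genes past the filter, of which none was called against untreated cells for either exposure. Their median log2 difference with both exposures together was -0.051, with 7 of 8 below 0, against a median of 0.0012 and 49.7% below 0 over all entries. TALDO1, transaldolase of the pentose phosphate pathway, stood at 1291, 1306 and 1301 CPM in shUTX and 1130, 1084 and 1161 CPM in shNRF2 (-0.0094 ± 0.05, adjusted p = 0.987). MTAP, of methionine salvage, stood at 401, 377 and 398 CPM and at 268, 270.4 and 259 CPM (-0.047 ± 0.06). Both stayed close to their untreated library in all 4 exposed libraries. SELENOP, a selenium carrier, had 2 to 47 counts per library, which limits what could be detected.

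In the lists of protein handling and of RNA synthesis genes, most members had small differences below 0 with H2O2, with a single call in each list. The lists were chosen with earlier results of these data known, and their members share the same libraries. The shares below 0 are therefore descriptions and were not tested. In the list of chaperones, ubiquitin enzymes and VCP, 14 of 15 members past the filter lay below 0 with both exposures together (median -0.075) and 13 of 15 with H2O2 alone (median -0.090), and VCP was called. The chaperone DNAJA1 stood at 1666, 1563 and 1600 CPM in shUTX and at 1163, 1123 and 1189 CPM in shNRF2, and the proteasome subunit PSMD13 at 1316, 1249 and 1318 CPM and at 1218, 1095 and 1233 CPM, with log2 differences with H2O2 of -0.084 ± 0.05 and -0.13 ± 0.05 (adjusted p = 0.389 and 0.152). In the list of RNA polymerase II, Mediator and RNA processing, all 16 members past the filter lay below 0 with H2O2 (median -0.066, against 50.4% below 0 and a median of -0.0024 over all entries), and CIRBP was called. SUB1, a transcription cofactor, stood at 546, 481 and 514 CPM and at 490, 444 and 468 CPM (H2O2 -0.17 ± 0.05, adjusted p = 0.0603), and MED10 of Mediator at 187, 160.0 and 165 CPM and at 158, 154 and 149 CPM (-0.14 ± 0.07, adjusted p = 0.292). The differences were small, and with CeO2 10 of these 16 lay below 0 (median -0.025), against 54.8% of all matched entries.

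None of the cytosolic ribosome genes was called: 8 of 13 lay below 0 with both exposures together (median -0.0062), and RPS6 stood at 3907, 3598 and 3894 CPM in shUTX and at 3452, 3477 and 3499 CPM in shNRF2. Of 8 nuclear respiratory chain genes 3 lay below 0 (median 0.050), and of 13 genes of the mitochondrial ribosome, import and protein quality control 9 did (median -0.036), with no call in either against untreated cells. In the cell cycle, replication and DNA repair list 11 of 18 lay below 0 (median -0.040) and CDKN2B alone was called with H2O2. UHRF1, which maintains DNA methylation at replication, stood at 712, 693 and 719 CPM and at 678, 761 and 704 CPM in no common direction. Of 13 chromatin modifiers 2 lay below 0 (median 0.043), and KDM4B was the call with H2O2; SIRT6, a histone deacetylase gene, stood at 78.5, 83.9 and 78.5 CPM and at 87.9, 106 and 103 CPM (0.14 ± 0.08, adjusted p = 0.84).

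Of 7 interferon-linked genes 1 lay below 0 with both exposures together (median 0.099), and TICAM1 was called with H2O2. IFITM3, a membrane protein that blocks virus entry, stood at 969, 1051 and 979 CPM in shUTX and at 2188, 2187 and 2264 CPM in shNRF2; it shares sequence with its paralogs IFITM1 and IFITM2, so the counts of each are uncertain. In the list of cytokine receptors and inflammatory signals 9 of 10 lay below 0 with CeO2 (median -0.12) and 4 of 10 with H2O2 (median 0.017), with no call against untreated cells. Over all matched entries 54.8% lay below 0 with CeO2 and 51.2% with H2O2. OSMR, the oncostatin M receptor, stood at 815, 860.3 and 781 CPM and at 987, 962 and 961 CPM. Of 7 epidermal differentiation and barrier genes FUT3 was the call with H2O2; AQP3, the water and glycerol channel, stood at 215, 239 and 235 CPM and at 378, 313 and 417 CPM, and TINCR at 29.1, 49.1 and 28.2 CPM and at 67.1, 63.0 and 63.1 CPM. With H2O2 both lay above the untreated level in shUTX and below it in shNRF2.

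In the lists of matrix and protease genes, lipid metabolism and solute carriers the H2O2 calls were those described above (ADAMTS12 and TMPRSS9; ABCA7 higher and HMGCS1 lower; SLC12A7 higher and SLC1A3 lower), and the cytoskeletal and growth signalling lists had none against untreated cells. SEMA5A, a semaphorin gene, stood at 83.5, 116.6 and 90.0 CPM and at 220, 235 and 228 CPM (H2O2 0.24 ± 0.07, adjusted p = 0.0779). MYO10, an actin motor of filopodia, stood at 560, 616 and 554 CPM and at 494, 578 and 516 CPM (0.17 ± 0.05, adjusted p = 0.0647). Of the hypoxia genes, CA9 had 3, 5 and 9 counts in shUTX and 27, 36 and 50 in shNRF2, and MIR210HG, the host of microRNA 210, stood at 1.67, 2.93 and 1.84 CPM and at 8.93, 11.3 and 9.65 CPM. Both were higher in every exposed library than in its untreated one, and neither passed (CA9 0.74 ± 0.34 with both exposures, adjusted p = 0.816).

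The responses of shNRF2 and shUTX cells did not differ past the threshold for any entry. The edgeR test called 0 of 10675 entries (0.0%) for this difference, and DESeq2 called 0. An unadjusted p under 0.05 was reached by 234 entries, 12 of them matched. The H2O2 and CeO2 libraries of a hairpin stood in for replicates here, so any difference between the exposures counted as spread. With 2 residual degrees of freedom this test is exploratory, and 0 calls do not show that the hairpins responded alike. The smallest p was that of SLC4A1APP1 (log2 -5.19 ± 0.86, adjusted p = 0.326), whose counts were given above. MT-ATP8 stood at 440.0, 445 and 438 CPM in shUTX and at 605, 474 and 449 CPM in shNRF2 (-0.39 ± 0.13, adjusted p near 1), where the untreated shNRF2 library was the high one. RETREG1-AS1 (1.24 ± 0.47), TEKTIP1 (0.72 ± 0.31) and LRRC56 (1.20 ± 0.52) followed, all under 20 CPM in every library. TEKTIP1 overlaps MFSD12 on the other strand.

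The exposure response of shUTX and shNRF2 cells also differed from that of shControl and shMLL1 cells, with genes such as ATP5F1D and CDKN2A on the higher side and RICTOR and LIFR on the lower. In a fit of all 12 libraries, edgeR called this difference higher for 41 and lower for 8 of 488 matched entries, against 2.06% (222) higher and 4.19% (453) lower of 10800 entries tested. The pairs were put together with earlier results of these data known, so this count is a description and supports nothing by itself. Without the untreated shControl or the untreated shNRF2 library no matched entry was called, and without the untreated shUTX library 2 were. Without the untreated shMLL1 library 128 were.

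Among the higher ones, ATP5F1D of ATP synthase stood at 579, 346 and 334 CPM in untreated, H2O2 and CeO2 shControl cells and at 444, 378 and 366 CPM in shMLL1 cells, against 323, 321 and 303 CPM in shUTX and 343, 405 and 362 CPM in shNRF2 (difference of responses 0.70 ± 0.15 on the log2 scale, adjusted p = 0.00935). CDKN2A stood at 278, 198 and 179 CPM and at 160, 154 and 136 CPM, against 204, 234 and 222 CPM and 165, 191 and 178 CPM (0.64 ± 0.14, adjusted p = 0.0126). In both genes the untreated shControl library was high, and the responses in shUTX and shNRF2 were small. Of the lists, 6 of 8 nuclear respiratory chain genes, 4 of 13 cytosolic ribosome genes and 4 of 15 growth signalling genes were among the 41. The growth signalling genes included MAP2K2 (0.47 ± 0.10, edgeR adjusted p = 0.0128). So were 4 of 13 genes of the mitochondrial ribosome, import and protein quality control and 2 of 7 interferon-linked genes among the 41. The matched entries as a whole were shifted up, with a median log2 difference of 0.181 against -0.0086 over all entries. Of the matched entries 31.8% lay below 0, against 50.7% of all entries, and the list counts were not set apart from this shift. With the length trend removed, 3 of the 6 respiratory chain genes (ATP5F1D, NDUFA11 and NDUFS7) and 3 of the 4 growth signalling genes (MAP2K2, STK11 and TLE5) kept their call. Of the 4 cytosolic ribosome, 4 mitochondrial ribosome, import and quality control and 2 interferon-linked genes, 0 kept theirs. ADAT3, IRX2-DT and HINT2 were the remaining named ones (0.74 ± 0.21, 0.64 ± 0.18 and 0.60 ± 0.17).

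Among the lower ones, RICTOR, a subunit of mTOR complex 2, stood at 152, 234 and 252 CPM in untreated, H2O2 and CeO2 shControl cells and at 132, 204 and 190 CPM in shMLL1 cells, against 285, 290 and 273 CPM in shUTX and 304, 286 and 283 CPM in shNRF2 (-0.57 ± 0.10, adjusted p = 0.00462). LIFR, the leukaemia inhibitory factor receptor, stood at 81.3, 118 and 147 CPM and at 46.1, 58.2 and 60.1 CPM, against 115, 111 and 106 CPM and 134, 113 and 125 CPM (-0.56 ± 0.14, adjusted p = 0.0224). Both were higher in all 4 exposed shControl and shMLL1 libraries than in their untreated ones; in shUTX and shNRF2 RICTOR stayed near its untreated level and LIFR lay below it. PDZD2 (-0.55 ± 0.13), LMBRD2 (-0.60 ± 0.15) and ANKRD12 (-0.49 ± 0.13) were the other named ones on this side. After each library's counts had been adjusted for the length of the longest transcript, 25 matched entries were called, of which 11 were among the 49, all 11 on the higher side; 30 of the 41 higher and all 8 lower calls were lost. Of the 10 named genes ATP5F1D alone kept its call (0.48, adjusted p = 0.0278). CDKN2A was at 0.39 (adjusted p = 0.0617), RICTOR at -0.19 (0.305), LIFR at -0.15 (0.529) and PDZD2 at -0.095 (0.67).

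The correlation of log2 change with transcript length was near 0 over both derivatives together and of opposite sign in their H2O2 libraries. Pearson's r between the log2 change and log2 of the longest transcript was taken across the 361 coding matched genes outside the mitochondrial genome. It was -0.028 with both exposures together, 0.0096 with H2O2 and -0.074 with CeO2. Genes of 1 library share its depth and are not independent, so these are descriptions. By library, r over 365 genes was 0.092 (H2O2) and -0.019 (CeO2) in shUTX and -0.097 and -0.15 in shNRF2, against 0.55 and 0.57 in shControl and 0.36 and 0.41 in shMLL1. The shNRF2 response minus the shUTX response had an r of -0.13 over 361 genes, and of -0.21 over the 321 with a mean of at least 5 CPM. The difference between the pairs had an r of -0.48. In 4 equal groups of genes by length, the medians of the exposed shUTX and shNRF2 libraries lay between -0.038 and 0.034 on the log2 scale, while those of shControl with CeO2 ran from -0.38 in the shortest to 0.28 in the longest. The interquartile range of the log2 ratios was 0.23 and 0.15 in shUTX and 0.25 and 0.16 in shNRF2 (H2O2 and CeO2), against 0.49 and 0.53 in shControl and 0.27 and 0.22 in shMLL1. In shUTX and shNRF2 the spread of ratios was wider with H2O2 than with CeO2.

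**Figure D4:**
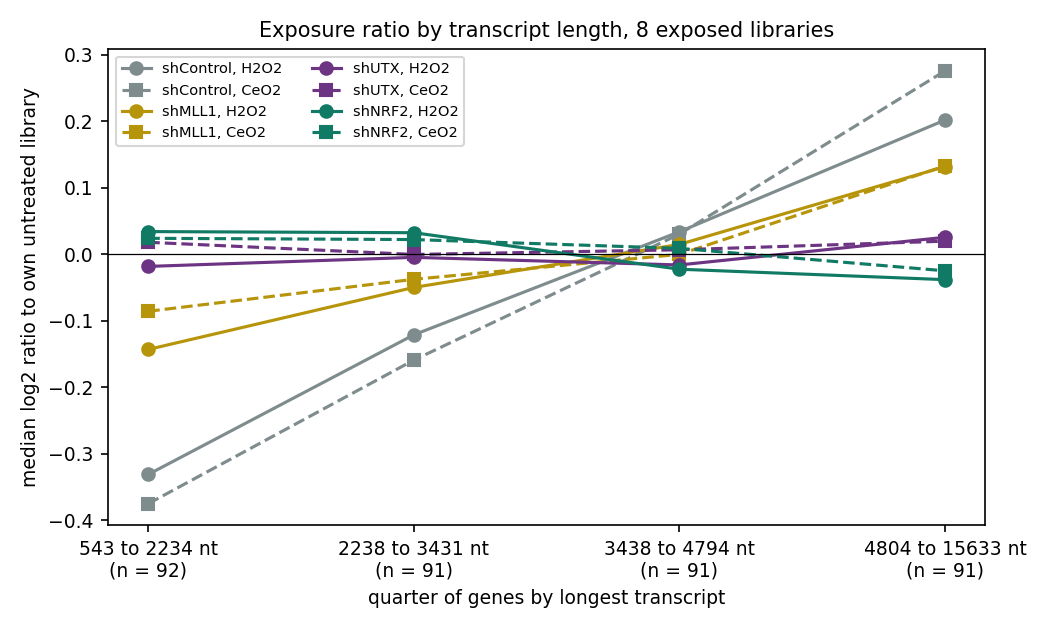
Median log2 ratio to the untreated library of the same hairpin (y axis) for the 8 exposed libraries, H2O2 as solid and CeO2 as dashed lines. The x axis gives 4 equal groups of coding matched genes outside the mitochondrial genome by longest transcript, in nucleotides. The shUTX and shNRF2 lines stay between -0.038 and 0.034 in every group, while the shControl lines climb from -0.33 to 0.20 with H2O2 and from -0.38 to 0.28 with CeO2.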

How the data were processed

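RNA-seq read counts per gene entry were analysed for 12 HaCaT libraries, 1 for each of 4 hairpins and 3 treatments; the labels' hairpin and treatment gave the groups. The values are the counts as deposited by the authors in 2 tables. Per the labels' protocols, total RNA was isolated with an RNeasy kit and sequenced from TruSeq libraries. The submitters' processing notes name HTSeq 0.11.1, HISAT2 2.2.1, Trimmomatic 0.39 and SAMtools 1.12, and the build GRCh38; of annotation, counting settings and strand, none is given in the sources used here. Positions of entries come from GENCODE 29 and promoters from RefSeq.

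Entries that reached 1 CPM in 2 or more of 6 libraries (3 of 12 in the fit of all libraries) were tested with edgeR 4.0.16 (quasi-likelihood test, TMM scaling, hairpin as block, Benjamini-Hochberg adjustment, threshold 0.05) in R 4.3.3, with 3 residual degrees of freedom for both exposures together, 2 for the single exposures and for the difference between hairpins, and 6 for the 12-library fit. The script was tested on simulated data. The untreated libraries come from the H2O2 table; their copy in the other table differed in 1 entry. Alternatives were other scaling and filters, DESeq2 1.42.0, limma-voom 3.58.1, no block, removal of a length trend and leaving out each library.

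Named genes of the pooled comparison have a mean of at least 5 CPM, 1 sign in all 4 exposed ratios and the smallest p, 12 in each direction. For other comparisons they are the 5 highest and 5 lowest calls or, with none, the 5 smallest p, together with list members of small p or high level; further called genes were named after their values were seen. The members and lists were chosen with earlier results of these data known.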

Additional observations from a re-analysis of the deposited data

Results flagged for a closer look

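The exposure response of shUTX and shNRF2 cells differed from that of shControl and shMLL1 cells in the edgeR test of the difference for 49 of 488 matched entries. Of these, 41 were higher and 8 lower, against 2.06% (222) higher and 4.19% (453) lower of all 10800 entries tested. The matched entries as a whole were shifted up (median log2 difference 0.181 against -0.0086 over all entries), and the 49 were not set apart from this shift. On the higher side the log2 differences were 0.74 for ADAT3, a tRNA deaminase gene, 0.70 for ATP5F1D, 0.64 for CDKN2A, 0.64 for IRX2-DT and 0.60 for HINT2, of a mitochondrial hydrolase. On the lower side they were -0.60 for LMBRD2, -0.57 for RICTOR, -0.56 for LIFR, -0.55 for PDZD2 and -0.49 for ANKRD12. None of the 49 was called without the untreated shControl library or without the untreated shNRF2 library. With the trend of counts with transcript length removed, 38 of the 49 calls were lost, among them those of 9 of these 10 genes, and ATP5F1D kept its call.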

How the results depend on the processing

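None of the matched calls for H2O2 (24), H2O2 against CeO2 (29) and the difference from shControl and shMLL1 (49) changed sign in the alternatives run. These refit all or most of the same libraries, so a kept sign is nearly built in and does not mean that a call held. Calls outside the matched stretches were not followed. With no filter beyond a count above 0, the calls were 31 entries (2 matched) for both exposures together, 49 (13 matched) for CeO2 and 12 (2 matched) for the difference between hairpins. DESeq2 called 0 entries for both exposures together, 38 (2 matched) for H2O2, 2 for CeO2 and 56 (4 matched) for H2O2 against CeO2. Without the replicate block, 0 entries were called for both exposures together. For CeO2 a filter at 5 CPM gave 4 entries and removal of the length trend 11; that removal gave 25 matched calls for the difference from shControl and shMLL1, 11 of them among the 49. With 1 library left out, the calls ran from 0 to 4 for both exposures together (0 matched), from 94 to 495 for H2O2 (7 to 40 matched), from 17 to 53 for CeO2 (1 to 17 matched), from 175 to 406 for H2O2 against CeO2 (16 to 41 matched), from 1 to 14 for the difference between hairpins (1 to 2 matched) and from 0 to 1968 for the difference from shControl and shMLL1 (0 to 128 matched). Without an untreated library the difference between hairpins has no value. The cause of these shifts was not tested. With 1 library for each hairpin and treatment, a lone library is assumed to vary like the others, and depth limits genes under a few CPM.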
